A study of Mus musculus with 4 samples.

Results

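The mRNA of wild-type mouse haematopoietic stem cells (HSCs) was described by abundance, as the share of all length-scaled sequencing signal that each gene takes. All 34315 features of the deposited gene table were used, in all 4 wild-type libraries. The cells were freshly sorted from the bone marrow of wild-type C57BL/6 mice by the gate SP-KSL-CD150+, that is, dye-effluxing side population cells carrying Kit, Sca-1 and CD150 and lacking mature lineage markers. Polyadenylated RNA was sequenced on a HiSeq 2000, and the labels call all 4 libraries technical replicates of biological replicate 1, while the design text speaks of duplicates. Age, sex and pooling of the mice are not stated, no group other than these untreated cells was used, and spread between libraries may therefore be technical.

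HSCs are rare, mostly quiescent cells of the marrow from which all blood lineages arise and which also replace themselves. They are known for a low rate of protein synthesis compared with their dividing progeny, although they hold mRNA for the whole translation machinery. Many mRNAs of that machinery start with a terminal oligopyrimidine (TOP) tract, an unbroken run of C and T at the first transcribed bases, through which growth signals set how strongly they are translated.

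Start sites of 6 of the highest ribosomal protein genes that carry such a run are shown because such a run was more frequent in this class than over all annotated starts. Each window holds 20 bases before and 10 bases from the annotated start, read 5′ to 3′ on the gene's strand from RefSeq (GRCm38.p6), with the longest run of at least 8 C or T bases in capitals, and it is followed by a pair of abundant ribosomal protein genes without such a run.
Rpl4: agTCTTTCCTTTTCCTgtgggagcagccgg
Rps9: gtccaaccgccttgTCTCTCTTTgtctcgg
Rack1: tccggcggaggccgCTCTTTCTTTTTCTCC
Rps18: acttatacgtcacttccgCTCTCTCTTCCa
Rpl39: CCCCCCCTaagctccgcctctagcgacttc
Rpl13a: gataagaaaccctgcgacaagaCCTCCTCC
Rps4x: aaagtctgaggctgggcggagcaacccagg
Rps15: gccctcccggcagagctcgcgataactgcg
The windows lie at chr9:64173367-64173396 for Rpl4, chr7:3704021-3704050 for Rps9, chr11:48800340-48800369 for Rack1, listed as Gnb2l1 in the gene table, and chr17:33955656-33955685 on the minus strand for Rps18. Those of Rpl39 (chrX:37085213-37085242) and Rpl13a (chr7:45128736-45128765) are on the minus strand, as is that of Rps4x (chrX:102189382-102189411), while that of Rps15 (chr10:80292411-80292440) is on the plus strand. A run of at least 8 C or T bases on the gene's own strand was present in 31 of 77 annotated starts of 65 matched ribosomal protein genes (40.3%), against 12.6% of all 32851 starts in the RefSeq table. On the opposite strand of the same ribosomal windows the share was 5.19%, and it was 13.1% over all starts. Translation factors held a run in 19.2% of their starts, genes of the nuclear-encoded respiratory chain in 10.4%, and genes at or above a share of 1000 parts per 1000000 (ppm) that were not ribosomal in 12%. The runs in Rpl4 and Rpl39 lie wholly before the annotated start, and that start may differ from the start used in these cells, so a match describes the letters only.

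The libraries held 40709659, 40798800, 47408552 and 47365062 counted reads. The deposited column named for fragments per kilobase was the count per kilobase of exon divided by 50, with no division by depth, so each library's column was divided by its own sum and written as a share in parts per 1000000 (ppm). Libraries 1 and 2 were averaged, libraries 3 and 4 were averaged, and the mean of these pair values is the share given for a gene. Over the 10962 features with a share of at least 10 ppm, the median absolute log2 difference was 0.04 between libraries 1 and 2 and 0.03 between libraries 3 and 4, against 0.24 for a library of each pair. Libraries 1 and 2 therefore stand apart from libraries 3 and 4, and values of the pairs are given side by side. With 1 group of technical replicates no test between conditions was possible.

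The stem cell transcriptome was spread over many genes, with a steep top. Of the 34315 features, 15615 (45.5%) reached 1 ppm and 9139 (26.6%) had no read in any library. The highest feature took 1.52% of the signal, the highest 10 took 6.67%, the highest 100 took 22.2% and the highest 1000 took 48.5%. The 1093 highest features held 50% of all signal, and 12451 held 99%. The top was steeper in libraries 3 and 4, in which 916 features held 50% of the signal, than in libraries 1 and 2, in which 1245 did.

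**Figure D1:**
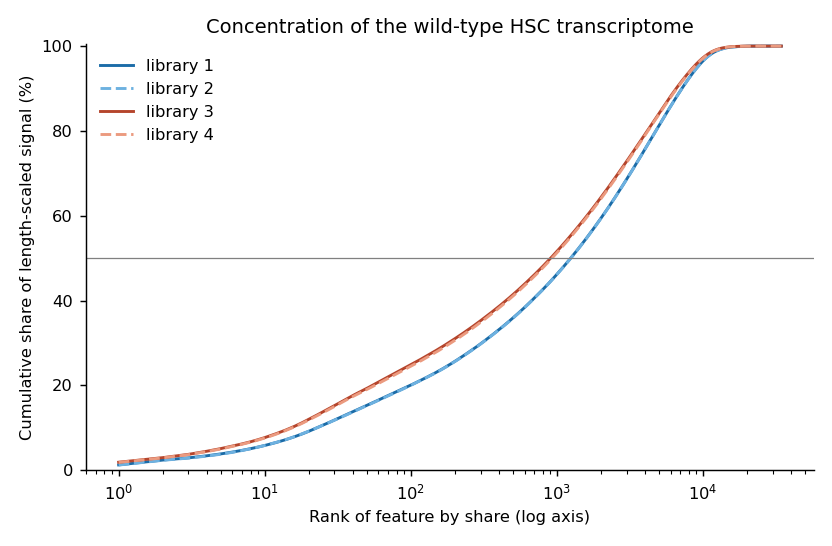
Cumulative share of the length-scaled signal (%, linear axis) against the rank of each feature by its share (log axis), 1 line per library. Libraries 3 and 4 lie above libraries 1 and 2, with 24.8% and 24.5% in their highest 100 features against 20% in each of the others.

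Features at or above 1000 ppm numbered 70 and took 19.6% of the signal, with a median exon length of 965 bases. The next band, from 100 to under 1000 ppm, held 2034 features and 42.9% of the signal, with a median exon length of 2087 bases, and the band from 10 to under 100 held 8858 features and 35.4%. The 4653 features from 1 to under 10 ppm took 1.87% together, and the 9561 with reads but under 1 ppm took 0.218%. The most abundant transcripts were thus shorter than those of the middle bands. Ranking by raw counts instead kept 59 of the highest 100 features, and the median exon length of that list was 2717 bases against 1089 for the list by share.

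Protein synthesis was the largest named expense. Ribosomal proteins, translation factors, ribosome biogenesis, aminoacyl-tRNA synthetases and mitochondrial ribosomal proteins together took 17.9% of the signal (15.7% in the first pair of libraries, 20.1% in the second). The 88 cytosolic ribosomal protein features alone took 12.7%, of which 86 reached 1 ppm and 1 had no read. Their share was 10.9%, 10.9%, 14.6% and 14.4% in libraries 1 to 4. By raw counts, which weight a transcript by its length, the same class took 4.13%, its median exon length being 698 bases.

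Eef1a1, the elongation factor that brings aminoacyl-tRNA to the ribosome, was the most abundant transcript (chr9:78326261-78329531, mm9). Its share was 12266, 11937, 18605 and 18168 ppm in libraries 1 to 4. Libraries 3 and 4 were higher than libraries 1 and 2 by 1.52-fold, and the gene ranked 1 in each pair. Eef2, which moves the ribosome along the mRNA, took 3719, 3779, 4807 and 4795 ppm. Pabpc1, the cytoplasmic poly(A)-binding protein, took 1921, 1893, 2487 and 2476 ppm. Both were again higher in libraries 3 and 4, by 1.28-fold and 1.30-fold. The 85 translation factor features took 3.81% in all, of which Eef1a1 and Eef2 made up 15244 and 4275 ppm. By share, 34 of the 72 factors at or above 10 ppm were higher in libraries 3 and 4, against 35.0% of all features. The class total thus followed its highest members. Under count-based scaling 55 or 56 of 72 were higher, where 6272 or 6347 of all 10962 features at or above 10 ppm were.

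Rpl32, a protein of the large ribosomal subunit, was the highest ribosomal gene, with 5234, 5230.2, 7768 and 7687 ppm. Rps4x, the X-linked small-subunit protein, followed with 4869.8, 4568, 7252 and 7096 ppm. Of the 30 highest features with a gene symbol, 22 were ribosomal proteins, and together those 30 took 12.5% of the signal. Between library pairs, 28 of these 30 were higher in libraries 3 and 4, and 0 were 2-fold apart, against 5.21% of the 10962 features at or above 10 ppm. Of the 85 ribosomal protein features at or above 10 ppm, 81 were higher by share in libraries 3 and 4. At that level 35.0% of all features were. Under either count-based scaling 84 of the 85 were higher there, against 6272 or 6347 of the 10962 features.

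The ribosomal protein genes were far from equal in their recorded shares, although their proteins enter the ribosome in largely equal number. Rpl27, Rps27 and Rpl10 stood at 28.3, 27.9 and 34.1 ppm, against 6479.7 for Rpl32. The recorded share went with the presence of near-identical pseudogenes, processed copies of the mRNA elsewhere in the genome from which short reads may not be told apart. For 86 of the 88 features a coding sequence was matched, and the closest annotated pseudogene covering at least 80% of it was found. The 11 genes without a pseudogene at 95% identity or more had a median share of 2071 ppm. The median was 4003 for the 11 genes whose closest pseudogene was from 95% to under 98% identical, 1470.5 for the 20 from 98% to under 99.5%, 707 for the 24 from 99.5% to under 100%, and 108 for the 20 with an identical copy. In the last group the highest was Rps16 at 404 ppm and 0 reached 1000 ppm, while 8 of the 11 genes without a copy did.

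**Figure D2:**
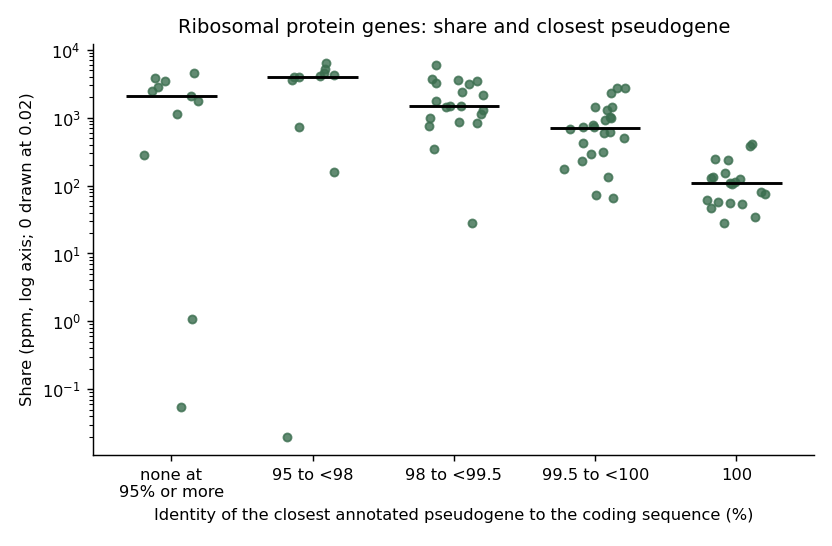
Share of 86 ribosomal protein genes (ppm, log axis, a gene at 0 drawn at 0.02) by the identity of the closest annotated pseudogene to the coding sequence (%), 1 point per gene with a black line at each group's median. The medians are 2071, 4003, 1470.5, 707 and 108 ppm from left to right. The low points in the 2 left groups include Rpl3l, Rpl39l and Rpl10l, variant genes used in other tissues.

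Across the 75 genes with such a copy, Spearman's rho between share and identity was -0.71, and -0.60 over all 86 with genes lacking a copy ranked lowest in identity, a description over genes that share libraries and annotation. Between share and the number of copies rho was -0.22 over the same 86 genes. Of 20 other genes examined, chosen with values known, 7 had a pseudogene at 99.5% identity or more. Of these, 6 lay between 20.3 ppm (Pgam1) and 222 ppm (Actg1), while Tpt1, a translationally controlled protein gene with an identical copy, stood at 977. Gapdh, the glycolytic enzyme often used as a reference gene, stood at 60.8, 48.6, 47.7 and 57.4 ppm and has 65 pseudogene matches, the closest being identical. Actg1, cytoplasmic gamma-actin, was at 222 ppm, while Actb, cytoplasmic beta-actin with no such copy, was at 2455. A gene without a copy was not always high, as Tmsb10, with none, stood at 103 ppm. The treatment of reads that match several places is not stated, and the part of this in the recorded shares was not tested. The identity bands were chosen after the values were seen.

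Energy supply took 4.97% of the signal. The mitochondrial chromosome, whose transcripts are polyadenylated and code for subunits of the respiratory chain, gave 12 features and 2.28% of the signal (2.40% and 2.16% in the pairs). Its highest feature, listed as DQ539915 at chrM:5327-6938, took 11373, 11172, 10778 and 10645 ppm and ranked 2 of all features. The feature listed as Cytb, at chrM:12406-15288, took 4482, 4461, 3723 and 3749.8 ppm. Cytb names cytochrome b of respiratory complex III, but the value is for the whole 2882-base feature, which may hold more than that gene. The Cytb feature overlaps BC071253 on the other strand, at 2435 ppm, and a kit that does not mark strand cannot tell their reads apart. By share 3 of the 12 mitochondrial features were higher in libraries 3 and 4, where 35.0% of all features at or above 10 ppm were. The class total, lower there by share, was slightly higher under count-based scaling (log2 0.03 and 0.04), so its direction depends on the scaling.

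The 94 nuclear-encoded respiratory chain features took 1.87%, led by Atp5b, the catalytic subunit of ATP synthase, at 1236, 1241, 1276 and 1274 ppm. Glycolytic and other central enzymes took 0.815%. Ldha, lactate dehydrogenase A, was at 847, 867, 930.3 and 929 ppm, and Pkm2, pyruvate kinase, at 841, 861, 801 and 796. Both varied little between the pairs. Of the 17 glycolysis genes, 8 were higher and 9 lower in libraries 3 and 4, where 35.0% of all features at or above 10 ppm were higher. In this list 0 were 2-fold apart, against 5.21% of features at that level, so few were to be looked for among 17 genes.

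Several other housekeeping systems took between 1% and 3% each. Splicing and RNA-binding proteins took 2.71%, with Ddx5, an RNA helicase, at 1019 ppm and Hnrnpa2b1 at 797. Actin, tubulin, myosin and their partners took 2.06%, led by Actb and by Tmsb4x, the actin-sequestering thymosin beta-4, at 1789, 1788, 2247 and 2234 ppm. Chaperones took 1.86%, led by Hsp90ab1 at 3109, 3068, 3193 and 3213 ppm, and proteasome and ubiquitin genes took 1.68%. Iron storage and redox genes took 1.08%, led by Fth1, the ferritin heavy chain, at 1519, 1479, 1821 and 1777 ppm, and Txnip, the thioredoxin-binding protein induced by glucose, at 1500.1 ppm. DNA replication and cell cycle genes took 1.30%, and 46.1% of the signal was in features that none of the name patterns covered.

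**Figure D3:**
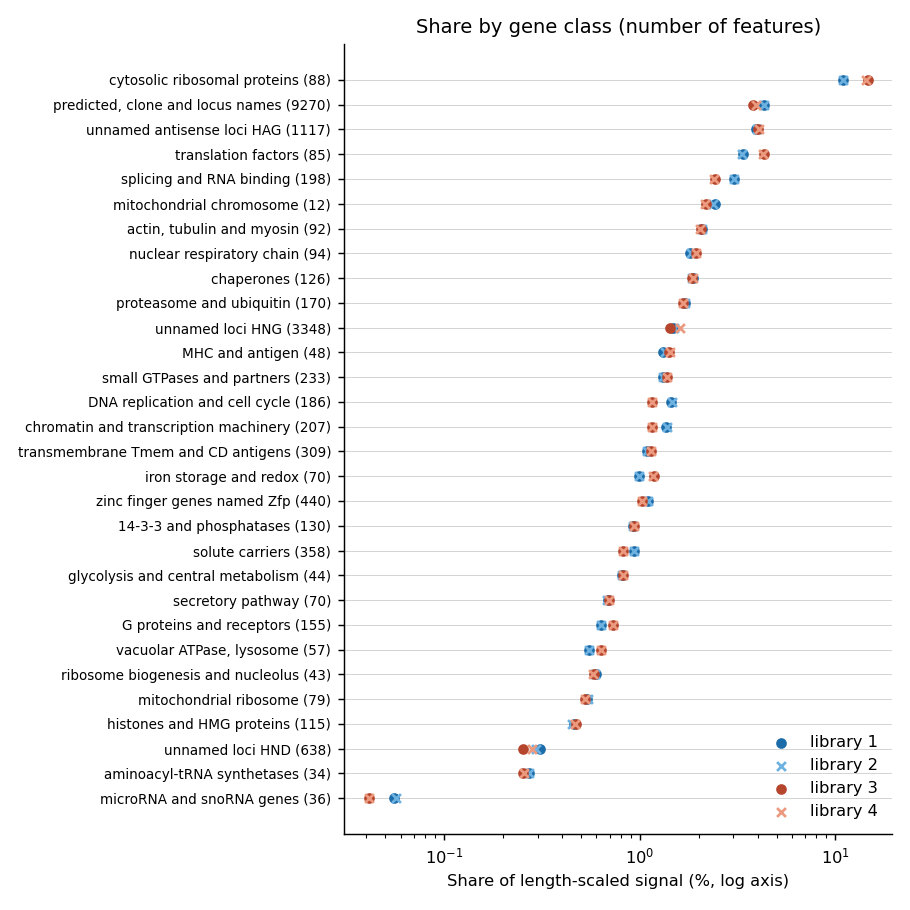
Share of the signal (%, log axis) by gene class in each library, 1 symbol per library, with the number of features of the class in brackets. Cytosolic ribosomal proteins lead at 10.9% to 14.6%, and libraries of a pair nearly coincide for most classes.

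Antigen presentation was among the larger named expenses, at 1.37% of the signal. B2m, the light chain common to MHC class I molecules, took 4313, 4494, 5976 and 6022 ppm and was the fifth most abundant feature. H2-K1, a class I heavy chain, took 3069.7, 3098, 2740.0 and 2726 ppm. The light chain was 1.36-fold higher in libraries 3 and 4, while the heavy chain was lower there by share and level under count-based scaling (log2 of 0.01). MHC class II genes were present at lower shares, H2-Aa at 267 and Cd74, the invariant chain, at 262 ppm.

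Among features in no machinery class, the highest were Serinc3, a serine incorporator family membrane protein, at 2068 ppm, Car2, carbonic anhydrase 2, at 1403, Srgn, the granule proteoglycan serglycin, at 1385, and Lmo2, the transcriptional adaptor needed for blood formation, at 1195. Lmo2 took 1236, 1232, 1154 and 1160.1 ppm and ranked 62 of all features. It was the only member of the list of 23 stem cell transcription factors above 500 ppm. The 3 interferon-induced transmembrane proteins that restrict virus entry were also high, with Ifitm3 at 922, Ifitm1 at 728 and Ifitm2 at 669 ppm. Ifitm1 stood at 553, 542, 885 and 932 ppm, so libraries 3 and 4 were 1.66-fold higher. Apoe, apolipoprotein E, was at 793, Angpt1, the angiopoietin that binds the receptor Tek, at 594, and Aldh1a1, a retinaldehyde dehydrogenase, at 506 ppm. This set was named after its values were seen, by rank within the unclassified features.

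The label of the cells was checked against its sorting markers. Kit, the stem cell factor receptor, took 652, 654, 670.3 and 668 ppm, close to level over the 4 libraries. Ly6a, which codes for Sca-1, took 154, 151, 257 and 253 ppm, and Slamf1, which codes for CD150, took 39.1, 39.6, 47.8 and 47.9. Abcg2, the transporter that effluxes the dye of the side population gate, was at 97.6, 102, 129 and 131 ppm, and Abcb1a, another dye efflux pump, at 11.5. All genes of these positive sorting markers were present in every library, Kit at the highest share of them and Abcb1a at the lowest. They do not check the absence of mature lineage markers, which the gate also requires. The neutrophil genes S100a8 and S100a9 were above Kit in libraries 1 and 2, at 1189 and 1126 ppm against 653. In libraries 3 and 4 they were below it, at 158 and 131 ppm against 669. Whether mature cells passed the gate was not tested. Cd48 and Flt3, which mark progenitors outside this gate, were at 13.5 and 28.5 ppm, each above Abcb1a.

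The list of 24 stem cell surface and sorting genes includes Cd48 and Flt3, the progenitor genes named above, so its values are not those of stem cell genes alone. All 24 genes reached 10 ppm and 13 reached 100, against 31.9% and 6.13% of all features. Their sum was 6677 ppm, 6226 in libraries 1 and 2 and 7128 in libraries 3 and 4. Gpr56, an adhesion receptor of HSCs, held the largest part at 2186, 2211, 2736 and 2728 ppm and ranked 30 of all features, between Rps3 and Actb. Without it the list summed to 4212 ppm. Ly6e, a small membrane protein of the Sca-1 family, was at 746, and Procr, the endothelial protein C receptor, at 116, 121, 175 and 171 ppm. In libraries 3 and 4, 17 of the 24 were higher and 7 lower by share, where 35.0% of all features at or above 10 ppm were higher, and 0 were 2-fold apart, against 5.21%.

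The 23 stem cell transcription factors summed to 4414 ppm, 4474 and 4355 in the pairs, and 23 of 23 reached 10 ppm. The sum differed little between pairs and its direction turned under count-based scaling (log2 of -0.04 by share, 0.14 and 0.15 by the scalings). After Lmo2 came Gata2, a zinc finger factor of early blood cells, at 372, 372, 362 and 364 ppm, and Myb, which is needed for expansion of progenitors, at 449, 449, 291 and 283. Hlf, a factor marking HSCs, was at 308, 306, 375 and 374 ppm. Gata2 was level over the libraries, while Myb was lower and Hlf higher in libraries 3 and 4. Etv6 was at 326, Meis1 at 266 and Erg at 258 ppm. Runx1, a regulator of the first HSCs of the embryo, was at 74.6 ppm, and Hoxa9 and Hoxb4, homeobox factors of HSCs, at 36.2 and 12.4. Hoxb4 stood at 18.1, 17.7, 6.31 and 7.62 ppm. It was the 1 member of these 23 lower by at least 2-fold in libraries 3 and 4. Of all features at or above 10 ppm, 4.52% were, a share near that of the list.

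Proliferation genes were measurable in this mostly quiescent population. All 28 genes of the cell cycle list reached 10 ppm, with a sum of 4100.4 ppm (4763 and 3437 in the pairs). Mcm6, a subunit of the replicative helicase, took 529, 529, 436 and 432 ppm, and Pcna, the sliding clamp of DNA polymerase, 526, 529.5, 406 and 401. Mki67, a marker of cycling cells, took 299.9, 296, 122 and 122 ppm. All 28 genes were lower in libraries 3 and 4 by share, as were 65.0% of all features at or above 10 ppm, and the sum was lower under either count-based scaling as well (log2 -0.29 and -0.28 against -0.47 by share). Among cycle inhibitors, Trp53, the p53 tumour suppressor, was at 269 ppm, Cdkn1b, p27, at 46.6, Cdkn1c, p57, at 33.5, 35.8, 49.9 and 48.8, and Cdkn2a, p16 and p19, at 0.0945. Whether the cycle genes come from a cycling minority or from low levels in all cells cannot be told apart in bulk RNA.

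The enzymes that write and remove DNA methylation, the subject of the series, were expressed at middle levels. Dnmt1, which copies methylation after replication, took 279, 282, 176 and 174 ppm, and Uhrf1, its recruiting partner, 180.2 and 178 in libraries 1 and 2 and 102 as the mean of libraries 3 and 4. The de novo enzymes were lower, with Dnmt3a at 50.2, 52.4, 28.9 and 28.3 ppm and Dnmt3b at 68, 69.4, 40.6 and 41.7. Of the enzymes that make 5-hydroxymethylcytosine, Tet3 was at 32.4, Tet1 at 16.5 and Tet2 at 18.8, 17.8, 4.65 and 4.46 ppm. Of this list of 13 genes, 11 were lower in libraries 3 and 4 by share, as were 65.0% of all features at or above 10 ppm, and 3 were lower by at least 2-fold, against 4.52%. Dnmt3l, a partner that has no catalytic activity, was at 0.117 ppm.

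Markers of other blood cells were uneven. The 22 neutrophil and monocyte genes summed to 3329 ppm, 5020 in the first pair of libraries and 1639 in the second, and of the 15 at or above 10 ppm, 10 were lower by at least 2-fold in libraries 3 and 4, against 4.52% of features at that level. S100a8, a calcium-binding protein abundant in neutrophils, took 1221, 1158, 157 and 158 ppm and its partner S100a9 took 1130.1, 1122, 129 and 133. Ngp, neutrophilic granule protein, took 479.7, 473, 49.7 and 50.7 ppm. In contrast Lyz2, lysozyme, stood at 553, 551, 576 and 586 ppm, and Prtn3, proteinase 3, at 380.3, 376, 351 and 349.6. S100a8, S100a9 and Ngp were thus 7.54-fold, 8.61-fold and 9.50-fold higher in libraries 1 and 2, while Lyz2 was 1.05-fold higher in libraries 3 and 4 and Prtn3 1.08-fold higher in libraries 1 and 2 by share, though not under count-based scaling (log2 of 0.07 and 0.08 for libraries 3 and 4). In bulk RNA fewer cells of a type and less RNA per cell cannot be told apart.

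The 15 erythroid features summed to 1721 ppm, but Car2 alone held 1403 of that, and the remainder was 318 ppm. Haemoglobin was low, with the alpha-globin feature Hba-a1,Hba-a2 at 14.7 ppm and the beta-globin feature at 18.8, and Klf1, the red cell transcription factor, at 17.1. The megakaryocyte list summed to 1571 ppm, with Pf4, platelet factor 4, at 236, 220.0, 262 and 254 and Vwf, von Willebrand factor, at 113, 115, 156 and 156. Lymphoid genes summed to 211 ppm, of which Nkg7 and Cd79b held 119 and 53.5, while Cd3e, a chain of the T cell receptor complex, was at 0.312 ppm (35 reads in all). Of the 10 mast cell and basophil genes, Cma1, Tpsb2 and Mcpt4 had no read in 176282073, which allows up to 0.0170 counts per 1000000 reads. Stromal and endothelial genes summed to 139.9 ppm, mainly Pecam1 at 56.1 and Emcn, which HSCs also express, at 45.0.

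**Figure D4:**
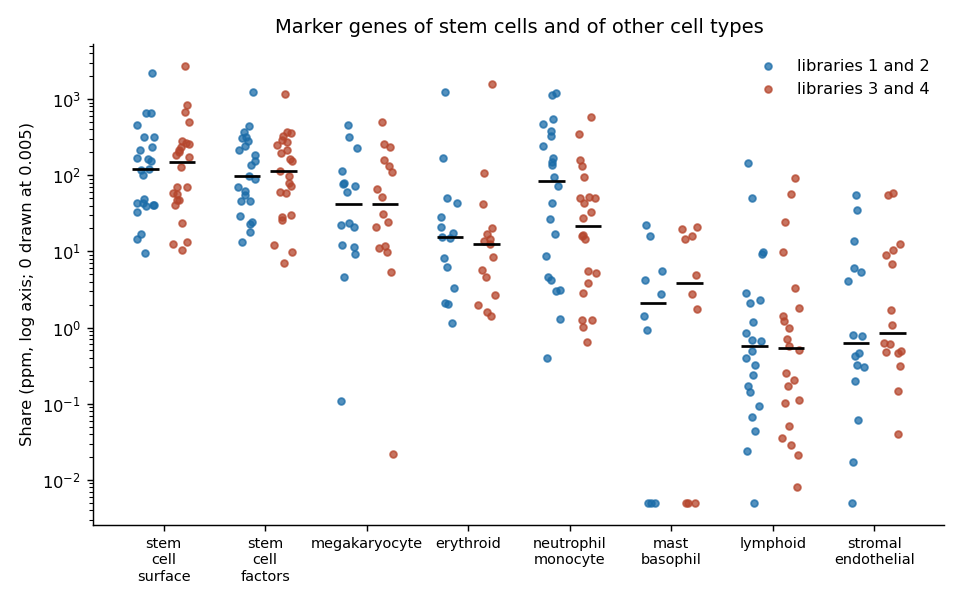
Share of each marker gene (ppm, log axis, 0 drawn at 0.005) by list, with libraries 1 and 2 in blue, libraries 3 and 4 in red and a black line at each median. Stem cell lists lie above the lymphoid, mast cell and stromal lists, and the neutrophil and monocyte list is lower in libraries 3 and 4.

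Between the library pairs, 571 of the 10962 features at or above 10 ppm were at least 2-fold apart, 76 higher and 495 lower in libraries 3 and 4 (0.693% and 4.52%). Under DESeq2's median-of-ratios scaling the count was 439, 120 higher and 319 lower, and under edgeR's TMM scaling it was 436, 121 higher and 315 lower. These scalings moved the log2 ratio of libraries 3 and 4 to libraries 1 and 2 up by 0.18 and 0.19 for every gene. Among the 200 highest features 5 were 2-fold apart, Fos, Egr1 and Zfp36 being higher and S100a8 and S100a9 lower in libraries 3 and 4. Fos, a transcription factor switched on within minutes of a stimulus, took 24.3, 24.8, 1272 and 1260.4 ppm. It ranked 8274 in libraries 1 and 2 and 65 in libraries 3 and 4. Of the 21 immediate early genes, 21 were higher in libraries 3 and 4, and of the 17 at or above 10 ppm, 14 were so by at least 2-fold, against 0.693% of features, while Myc, the growth regulator, took 268 and 277 ppm in the pairs. Neutrophil genes, immediate early genes and the steepness of the top all moved with the library pair, and the part of each in the others was not tested.

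Several nuclear noncoding RNAs were lower in libraries 3 and 4. Malat1, a nuclear RNA of splicing speckles, took 454, 452, 28.3 and 28.4 ppm, and Neat1, the scaffold of paraspeckles, took 460.4, 459, 45.2 and 45.0. Of the 19 noncoding genes listed, 16 were lower in libraries 3 and 4 by share, against 65.0% of all features at or above 10 ppm, and 3 were higher, among them Rmrp and Rpph1, with 14 and 34 reads in all. Xist, the RNA that silences an X chromosome, was at 0.211 ppm (247 reads in all), while the Y-linked Eif2s3y took 109.8, 114, 69.3 and 68.5 and Ddx3y took 52.0, 51.0, 43.7 and 43.6 ppm. The sex of the mice is not given in the labels. In all, features whose symbols GENCODE lists as long noncoding took 0.741% of the signal, pseudogenes took 0.857% and protein-coding genes 89.8%, and 8.60% was in features with no matching symbol.

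Unnamed loci took 5.78% of the signal. The 1117 loci with names starting HAG took 4.0%, and 1115 of them lay opposite a gene on the other strand. Of the 630 such loci at or above 10 ppm, 494 (78.4%) had a share within 2-fold of their partner's, with a median ratio of 0.878. The locus opposite Gata2 stood at 382 ppm against 368 for Gata2, that opposite Angpt1 at 509 against 594, and that opposite Cd24a, a surface sialoglycoprotein gene, at 486 against 518. The locus opposite Fos was at 404 ppm against 645, and it took 19.3 and 789 in the pairs where Fos took 24.5 and 1266. Without strand, reads of a gene and of the locus opposite it cannot be told apart, and these shares cannot be read as antisense transcription.

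Gene families of other tissues were mostly without reads. Families were grouped by gene name. No read was found in any library for 1093 of 1253 olfactory receptor features (87.2%), 394 of 437 vomeronasal receptors and 41 of 42 beta-defensins. The same held for 84 of 106 features with keratin-like names, which include Krtcap2, against 26.6% of all features. The highest keratin was Krt18, an epithelial keratin, at 178, 182, 267 and 269 ppm. In contrast 0 of 39 proteasome subunit features and 8 of 341 zinc finger features grouped by a Zfp name, among them Zfp36, had no read. Among 39 Hox genes, 10 had no read and 10 reached 10 ppm, with Hoxa9 the highest. By chromosome, 7 and 11 took the most signal, 9.17% and 8.37%, while the X took 3.58% and the Y 0.0192%, with 7 features of the Y at or above 1 ppm.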

How the data were processed

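Gene-level values of 4 wild-type HSC libraries were taken from a deposited table of the whole series. The count columns hold reads per feature as the authors deposited them. The deposited signal columns, headed fpkm, were read as the count per kilobase of exon divided by 50. On all 20187 features with reads in every library, the ratio of signal to count was the same in the 4 libraries. That check does not test the constant or the exon length. Of the table's 30 columns, 8 further per-library columns belong to other samples and were not used here. mm9 and DESeq are named in the submitters' processing notes, and the aligner, counting tool, annotation and treatment of reads with several matches were each not given in the sources used here. RNA was extracted with the Qiagen RNeasy Micro kit and prepared with the TruSeq RNA kit, which does not mark strand, per the labels' protocols.

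Each signal column was divided by its own sum and given as a share in parts per 1000000 (ppm), libraries 1 and 2 were averaged, libraries 3 and 4 were averaged, and the pair values were averaged (Python 3.11.15, pandas 2.3.3, numpy 2.4.6, scipy 1.17.1). Exon length was recovered from count and signal, for 25176 features. Classes were assigned by 30 patterns on gene symbols, of which 9 were written after values were seen. Coding sequences were compared with GENCODE vM21 pseudogene transcripts by blastn 2.17.0, and start windows came from RefSeq GRCm38.p6. Coordinates of features are mm9 as deposited, and those of start windows GRCm38.p6. As alternatives to shares, the counts or the deposited signal columns were divided by size factors of DESeq2 1.42.0 or by TMM-adjusted library sizes of edgeR 4.0.16 (R 4.3.3). No test was made, since the labels give 1 group of technical replicates. A count of 0 allows 3 counts, and this limit covers counting error only. The share calculation was tested on simulated data. Members, classes and lists were chosen with earlier results of these data known. The text names the 30 highest features with symbols, the highest of each class and list, stem cell genes, the features 2-fold apart among the highest 200, and a few genes chosen after their values were seen (Y-linked genes, keratins, Actg1, low ribosomal genes and unclassified genes). Single genes of these lists that are not reported here remain in the lists' sums and counts.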

Additional observations from a re-analysis of the deposited data

Results flagged for a closer look

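Of 173 classes, lists and genes examined, 1 was flagged for a library apart from the other 3. Pgam1, a glycolytic mutase with an identical pseudogene, took 19.6, 19.7, 19.9 and 21.8 ppm, and library 4 was separated from the rest by 0.845 of the whole range, above Dixon's critical value for 4 samples. Chance flags about 1 in 20 groups.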

How the results depend on the processing

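No paired analysis was possible because there is 1 group. Each library was left out in turn, and all 4 were pooled. None of the 168 values for classes, lists and genes moved beyond the standard deviation of the 4 libraries. That spread includes the gap between pairs, and a library left out is stood in for by its close partner. Leaving out a library could therefore hardly move a value, and the outcome does not show how stable the values are. The count of features 2-fold apart ran from 578 to 597 without a library. Read counts not divided by length put 14% in the highest 100 features, 4.13% in ribosomal proteins, 1.79% in the mitochondrial chromosome, 6242 ppm in the stem cell factors and 9049.7 in the surface genes, since counts weight long transcripts. With features that have a gene symbol only, the mitochondrial chromosome took 0.628%, most of its features being unnamed, the stem cell factors 4996 and the surface genes 7555 ppm. Leaving out the mitochondrial chromosome gave 4518 ppm for the factors. Leaving out the unnamed loci, an alternative chosen after seeing the data, gave 4685 for the factors and 2.42% for the mitochondrial chromosome. These removals shrink the total by which shares are divided. The count of 571 features 2-fold apart became 1586 with a minimum of 1 ppm, 68 with a minimum of 100 and 3568 with a read in every library as the sole condition, since more or fewer features enter. Depth limits values under about 1 ppm, where 64.5% of features with reads were 2-fold apart.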

Other observations

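Chromatin regulators of the Polycomb and Trithorax groups, which hold genes silent or active through cell division, were present throughout. The 23 genes listed summed to 1364 ppm, and Wdr5, a subunit of the histone H3 methylating complexes, was the highest at 135 ppm. Ezh2, the methylating enzyme of Polycomb complex 2, took 136 and 81.1 ppm in libraries 1 and 2 and in libraries 3 and 4, while its relative Ezh1 took 48.6 and 48.8. Of the 23 genes, 19 were lower in libraries 3 and 4 by share, against 65.0% of all features at or above 10 ppm, Mll2, a Trithorax enzyme with a long transcript, by the largest ratio among those listed, from 65.5 to 17.8 ppm.

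In 3 further gene families few members reached 10 ppm. Of 104 cytochrome P450 features 57 had no read and 9 reached 10 ppm. Of 33 interleukin features 14 had no read and 4 reached 10, led by Il16 at 82.3 ppm. Of 43 collagen features 2 had no read and 4 reached 10, led by Col16a1 at 79.2. Over all features 26.6% had no read and 31.9% reached 10 ppm, so collagens lacked reads less often than features in general. Among the olfactory receptor features, the highest was a joint feature with Ifi47, an interferon-induced GTPase, at 127 ppm, and the highest with an olfactory receptor name alone was Olfr632 at 3.39.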
